A study of Arabidopsis thaliana with 30 samples.

Results

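Dry seeds of Arabidopsis thaliana hold messenger RNAs made during seed maturation, and a share of them sits on ribosomes before any water is taken up. The comparison described here sets polysomal mRNA against total mRNA of dry seeds, gene by gene, and was read from the 3 arrays labelled P dry and the 3 labelled T dry. These are 6 of the 30 arrays of the series, whose other arrays cover the same 2 RNA fractions of seeds imbibed for 6, 26, 48 or 72 h (hours after imbibition, HAI). All seeds were of the Columbia (Col-0) ecotype with no transgene or mutation, were after-ripened until dormancy was lost, and came per replicate from the pooled harvest of 100 plants. Dry seeds are the 0 h time point, without imbibition. Whole seeds were extracted, so embryo, endosperm and seed coat are mixed. Polysomal RNA was taken from the part of a sucrose gradient that holds mRNAs with several ribosomes, and total RNA was taken from the crude extract before the gradient. GEO's record gives total RNA as the molecule for both fractions, so the fraction was read from the titles.

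Initiation factors load a ribosome at the 5′ end of an mRNA, further ribosomes follow, and an mRNA with several ribosomes sediments deep in a sucrose gradient as a polysome. The level of an mRNA in polysomes relative to its level in total RNA is its polysome occupancy, which reads how the mRNA is distributed and not how fast it is translated. RNAs that are not translated, such as small nuclear RNAs (snRNAs) of the spliceosome and small nucleolar RNAs (snoRNAs) that guide the modification of ribosomal RNA, have no place on polysomes in the textbook scheme. In dry seeds the abundant mRNAs are those of storage proteins, oil body proteins and late embryogenesis abundant (LEA) proteins.

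Levels are log2 values after robust multi-array averaging (RMA), with 1 unit a 2-fold difference, and a level of 4 or less is treated as noise. Differences are polysomal minus total on that log2 scale. RMA sets all arrays to a common distribution, so a difference is relative to the other genes, and a loss of polysomes shared by all mRNAs would not be seen. The T dry arrays correlated with each other at 0.965 to 0.973 over the 27827 genes, the P dry arrays at 0.984 to 0.989, and the 2 fractions with each other at 0.957 to 0.974. The T dry 2 array had the lowest correlations with the other arrays. The 12 dry seed markers were above 4 on all 6 arrays, between 6.77 and 12.06, and their summed log2 level was 14.99 to 15.04 in total and 14.73 to 14.81 in polysomal mRNA. The endosperm marker EPR1 was measured at 10.47 to 11.24, while the seed coat markers BAN, TT12 and TT10 did not exceed 2.14 on any array. Of the green tissue markers, RBCS1A was at 6.21 to 7.50 and the other 4 had at least one array below 4, with the T dry 2 array the highest for CAB1 at 4.94 and for CAB3 at 5.43. The markers of dividing cells, CDKB2;1 and CYCB1;1, were at 2.41 to 4.21. In whole seeds, fewer cells of a type and less RNA per cell cannot be told apart.

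Of the 17061 genes that passed the noise filter, 459 were higher and 119 lower in polysomal than in total mRNA by at least 2-fold (limma with Benjamini-Hochberg adjusted p below 0.05), which is 2.69% and 0.697% of the genes tested. Of these calls, 79.4% were on the higher side, and 68.1% were after a further quantile normalization, with 273 genes higher and 128 lower. The median difference over all genes tested was 0.09, with an SD over genes of 0.46 and a range of -3.10 to 2.82. This median depended on the filter and scaling. It was -0.08 without a noise filter and 0.02 after the further quantile normalization. Where all 3 dry arrays of one fraction had to exceed 4, it was 0.19. Without the limit of 2-fold, 2674 genes were higher and 802 lower. The 3 polysomal arrays lay above the 3 total arrays without overlap for 441 of the 459 genes, against 24.4% of all genes tested, and below them for 112 of the 119, against 11.6%. Near the limit, 147 genes had a difference of 1 to 1.1 and 274 one of 0.9 to 1, while 41 had one of -1.1 to -1 and 86 one of -1 to -0.9. When T dry 3 was left out, 700 genes were higher and 201 lower, of which 427 and 98 were among the calls with all arrays.

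**Figure D1:**
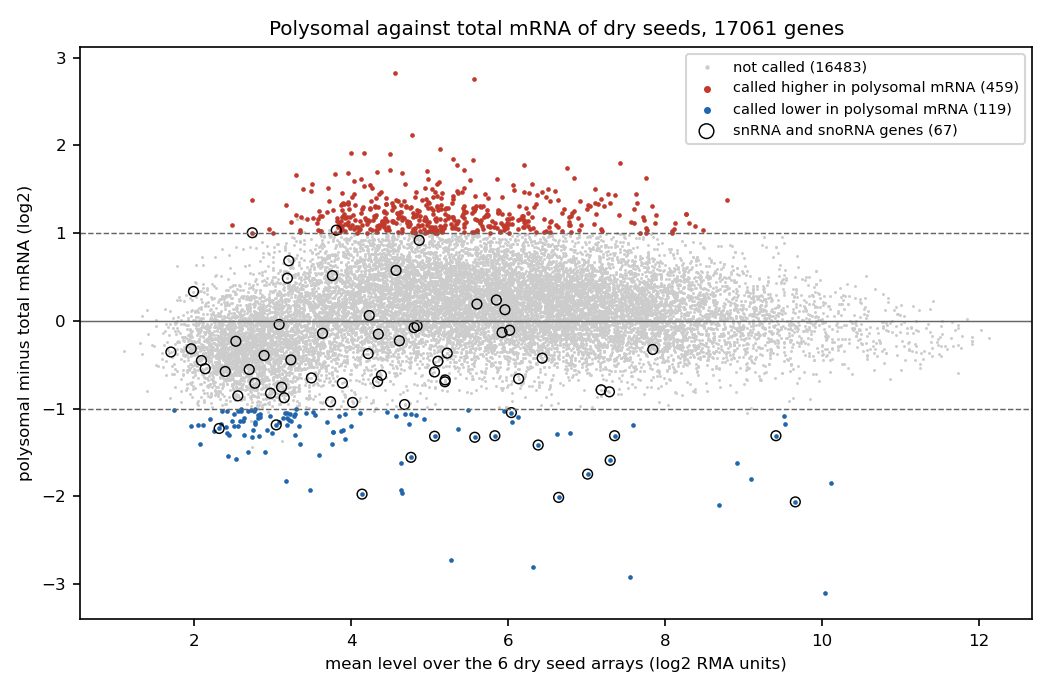
The y axis is the log2 difference between polysomal and total mRNA of dry seeds and the x axis the mean log2 level over the 6 arrays, with 1 point for each of the 17061 genes tested and dashed lines at the 2-fold limits. The 459 genes higher in polysomal mRNA (red) reach 2.82, the 119 lower genes (blue) reach -3.10, and the snRNA and snoRNA genes (open circles) lie mostly below 0.

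Of the 459 higher genes, 306 had a mean above 4 in both fractions, 153 had a total mean of 4 or less and 11 were at 4 or less in both. Of the 119 lower genes, 34 had a mean above 4 in both fractions, 85 a polysomal mean of 4 or less and 61 were at 4 or less in both. For those 61 genes the size of the difference was measured within the noise. By RefSeq gene type, 90 of the lower genes were protein coding, 25 were of other types and 4 had no entry, against 437, 10 and 12 of the higher genes. Of all 17061 genes tested, 16839 had a RefSeq entry and 16468 were protein coding.

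The genes lowest in polysomes relative to total mRNA included RNAs with no coding sequence at high levels. AT1G15405, a noncoding RNA gene, was at 11.56, 11.65 and 11.56 in the total arrays and at 8.33, 8.83 and 8.29 in the polysomal arrays. Its difference was -3.10 ± 0.23 (SE, n = 3 per fraction; adjusted p = 3.07e-09), an 8.60-fold lower level in polysomes and the lowest value of all genes tested. The ncRNA AT3G55485 was at 6.07, 6.85 and 6.99 in total and at 4.07, 3.99 and 3.66 in polysomal mRNA, a difference of -2.73 ± 0.27 (adjusted p = 2.83e-07). The rule that named these genes, and the others with the largest differences in either direction, took only genes whose fractions did not overlap.

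Small nuclear RNAs of the spliceosome had mean levels lower in polysomal than in total mRNA. U1.5, a gene for the U1 snRNA that pairs with the 5′ splice site, was at 10.70, 10.74 and 10.64 in total and at 8.23, 9.21 and 8.44 in polysomal mRNA, a difference of -2.06 ± 0.35 (adjusted p = 0.0002). U12, an RNA of the minor spliceosome, was at 8.03, 8.14 and 8.12 against 6.52, 6.65 and 6.35, a difference of -1.59 ± 0.25 (adjusted p = 8.62e-05). U6acat, as RefSeq writes the name, was at 7.79, 7.48 and 7.68 against 5.13, 5.81 and 5.97, a difference of -2.01 ± 0.21 (adjusted p = 1.29e-06). All 5 snRNA genes tested had a difference below 0. Of these, 3 were called lower (60.0%, against 0.697% of all genes tested) and 0 higher. Their median was -1.59. Over the alternatives run this median went from -2.01 with a noise level of 5 to -0.55 without a noise filter. AT7SL-1, which RefSeq lists as protein coding but names for the 7SL RNA of the signal recognition particle, was at 11.05, 11.11 and 10.94 in total and 8.99, 9.42 and 9.14 in polysomal mRNA. Its difference was -1.85 ± 0.19 (adjusted p = 1.04e-06), with P dry 2 the highest polysomal array.

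Of the 62 snoRNA genes tested, 12 were lower and 1 higher (19.4% and 1.61%, against 0.697% and 2.69% of all genes tested). Their median was -0.55, with 50 differences below 0. SNOR30 was at 7.93, 7.96 and 7.78 in total and at 6.06, 6.41 and 5.96 in polysomal mRNA (-1.75 ± 0.26, adjusted p = 6.06e-05). SNOR105 was at 4.89, 5.25 and 5.25 against 2.72, 3.71 and 3.03, where all polysomal values were below 4 (-1.98 ± 0.27, adjusted p = 1.94e-05). AT4G39366 and AT5G13225, 2 further snoRNA genes, were lower by differences of -1.42 ± 0.33 and -1.56 ± 0.38. The polysomal mean of AT5G13225 was 3.99, in the noise. The exception AT1G32385, at 1.89 to 2.63 in total and 3.06 to 3.35 in polysomal mRNA, was higher by 1.0 ± 0.30 (adjusted p = 0.0191), entirely within the noise, and its difference was 0.83 to 0.98, with the call lost, without T dry 1, T dry 2, P dry 2 or P dry 3.

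The other types without coding sequence were less uniform. Of 70 ncRNA genes, 5 were lower and 2 higher (7.14% and 2.86%, against 0.697% and 2.69% of all genes tested). Their median was -0.14. AT1G70185 had a difference of -1.97 ± 0.29 and AT4G03935 one of -1.28 ± 0.23, whereas AT1G64572 and AT2G31585 were higher by 1.07 ± 0.35 and 1.01 ± 0.34. The polysomal mean of AT1G70185 was 3.66 and the total mean of AT1G64572 was 3.94, both in the noise. The call of AT1G64572 was lost without T dry 1 (0.61), P dry 1 (0.95) or P dry 3 (0.91), and that of AT2G31585 without any 1 of the dry arrays but T dry 3, at values of 0.79 to 1.12. Of 143 lncRNA genes, 3 were lower and 4 higher (2.1% and 2.8%, against 0.697% and 2.69% of all genes tested), with a median of 0.15. AT4G38932 was at 9.66, 9.68 and 9.82 in total and at 7.86, 8.35 and 8.10 in polysomal mRNA. AT1G15002 and AT3G59068 were the other lncRNAs called lower (-1.93 ± 0.27 and -1.30 ± 0.26). The polysomal mean of AT1G15002 was 3.68, in the noise. The 4 higher lncRNAs, AT2G04852, AT1G17232, AT4G26095 and AT3G21781, had differences of 1.05 to 1.37. The total means of AT2G04852, AT1G17232 and AT4G26095 were 3.99, 2.86 and 3.42, in the noise, and that of AT3G21781 was 4.13. Of these 4, AT2G04852 kept its call with each dry array left out in turn. The calls of the others were lost without T dry 1 (0.93) or T dry 2 (0.75) for AT4G26095, without T dry 2 (0.94), T dry 3 (0.72) or P dry 2 (1.0) for AT3G21781, and without any array but T dry 2 and P dry 1 for AT1G17232, at 0.73 to 1.18.

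Transfer RNA and miRNA genes mostly stayed below the limit. Of 20 tRNA genes tested, 1 was lower and 1 higher (5.0% each, against 0.697% and 2.69% of all genes tested). Their median was -0.31. AT5G23665 was lower (-1.58 ± 0.40), at 3.45, 3.49 and 3.04 in total and 1.70, 1.55 and 1.98 in the polysomal arrays, all in the noise. AT2G07745 was higher (1.01 ± 0.28), with a total mean of 3.35, in the noise. The call of AT2G07745 was lost without T dry 2 (0.77), P dry 1 (0.82) or P dry 2 (0.998). Of 25 miRNA genes tested, of 174 on the array, MIR825 alone was called lower (4.0%, against 0.697% of all genes tested) and 0 higher. MIR825 was at 5.01, 4.90 and 4.0 in total and 3.72, 3.74 and 3.31 in polysomal mRNA (-1.05 ± 0.30, adjusted p = 0.0157). Its call was lost without T dry 1 (-0.86), T dry 2 (-0.91) or P dry 3 (-0.91).

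Among the other genes listed as protein coding that were above 4 in both fractions, 4 loci without a gene symbol had large differences. AT2G31141 was at 9.01, 9.12 and 8.93 in total and 5.94, 6.31 and 6.02 in polysomal mRNA, a 7.59-fold lower level (-2.92 ± 0.22, adjusted p = 3.07e-09). AT3G63052 was at 7.70, 7.82 and 7.65 against 4.67, 5.21 and 4.89 (-2.80 ± 0.24, adjusted p = 3.14e-08). AT1G68945 was at 9.64, 9.69 and 9.88 against 7.42, 7.87 and 7.63 (-2.10 ± 0.19, adjusted p = 7.25e-08). These 3 loci span 809, 398 and 489 bp in RefSeq, introns included, against a median of 2396 bp for the protein coding genes tested. AT3G07850, with a span of 2013 bp, was at 9.95, 10.05 and 9.96 against 7.92, 8.48 and 8.16 (-1.80 ± 0.20, adjusted p = 2.83e-06). UBQ12, a polyubiquitin gene, was at 4.06, 4.61 and 4.67 in total and 2.07, 2.89 and 2.60 in polysomal mRNA (-1.93 ± 0.37, adjusted p = 0.00079), so that its polysomal level was in the noise on all 3 arrays.

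On the other side, the 17 genes with the largest differences that met the naming rule were all protein coding. AT5G17900 was at 4.47, 3.03 and 5.05 in total and at 6.93, 7.04 and 6.85 in polysomal mRNA, a 6.77-fold higher level (2.76 ± 0.34, adjusted p = 6.63e-06). AT5G28320 had the highest difference of all, 2.82 ± 0.70 (adjusted p = 0.00573), from 3.39, 1.52 and 4.53 in total and 6.00, 5.40 and 6.52 in polysomal mRNA. In both genes T dry 2 was the lowest array, and without it the difference of AT5G28320 was 2.01 and no longer passed the adjusted p. The total mean of AT5G28320 was 3.15, so the size of its difference was measured against the noise, and whether it shares probes with AT5G28400, a nearby locus of like span, was not tested. AT3G04750 was at 4.01, 4.01 and 4.44 against 6.12, 6.37 and 5.85 (1.96 ± 0.28, adjusted p = 3.6e-05), and AT3G49601, at 5.60, 4.96 and 5.39 against 7.11, 7.12 and 7.06, had a smaller error (1.78 ± 0.13, adjusted p = 3.07e-09). The polysomal values of AT3G49601 lay between 7.06 and 7.12.

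Several named genes in this set encode nuclear proteins. SAP130a, a subunit of the splicing complex that recognizes the branch point, was at 5.90, 6.94 and 6.75 in total and 7.92, 8.60 and 8.47 in polysomal mRNA (1.80 ± 0.33, adjusted p = 0.000488). CHR11, a chromatin remodelling ATPase of the ISWI type, was at 6.86, 6.59 and 7.38 against 8.76, 8.45 and 8.52 (1.63 ± 0.21, adjusted p = 1.29e-05). NERD, which RefSeq names as needed for an RNA-directed form of DNA methylation, was at 5.87, 5.77 and 6.42 against 8.18, 6.93 and 7.85 (1.63 ± 0.24, adjusted p = 5.71e-05). P dry 2 was the lowest polysomal array in CHR11 and NERD and the highest in SAP130a. SMC5, of a complex that acts in DNA repair, was at 4.03, 2.37 and 4.76 against 6.02, 5.56 and 5.93 (2.12 ± 0.37, adjusted p = 0.00033), and HEB1, named for hypersensitivity to boron, at 3.28, 4.19 and 4.90 against 5.78, 5.62 and 6.08 (1.70 ± 0.29, adjusted p = 0.000225). The remaining loci of this set carry no symbol. AT5G12400, AT2G02160, AT3G01319, AT5G06110 and AT5G07980, above 4 in both fractions, had differences of 1.72 to 1.84, and AT1G33612, AT5G28400 and AT5G27220, with a total mean of 4 or less, had differences of 1.90 to 1.91. Without T dry 2 the value of AT5G07980 was 1.12.

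**Figure D2:**
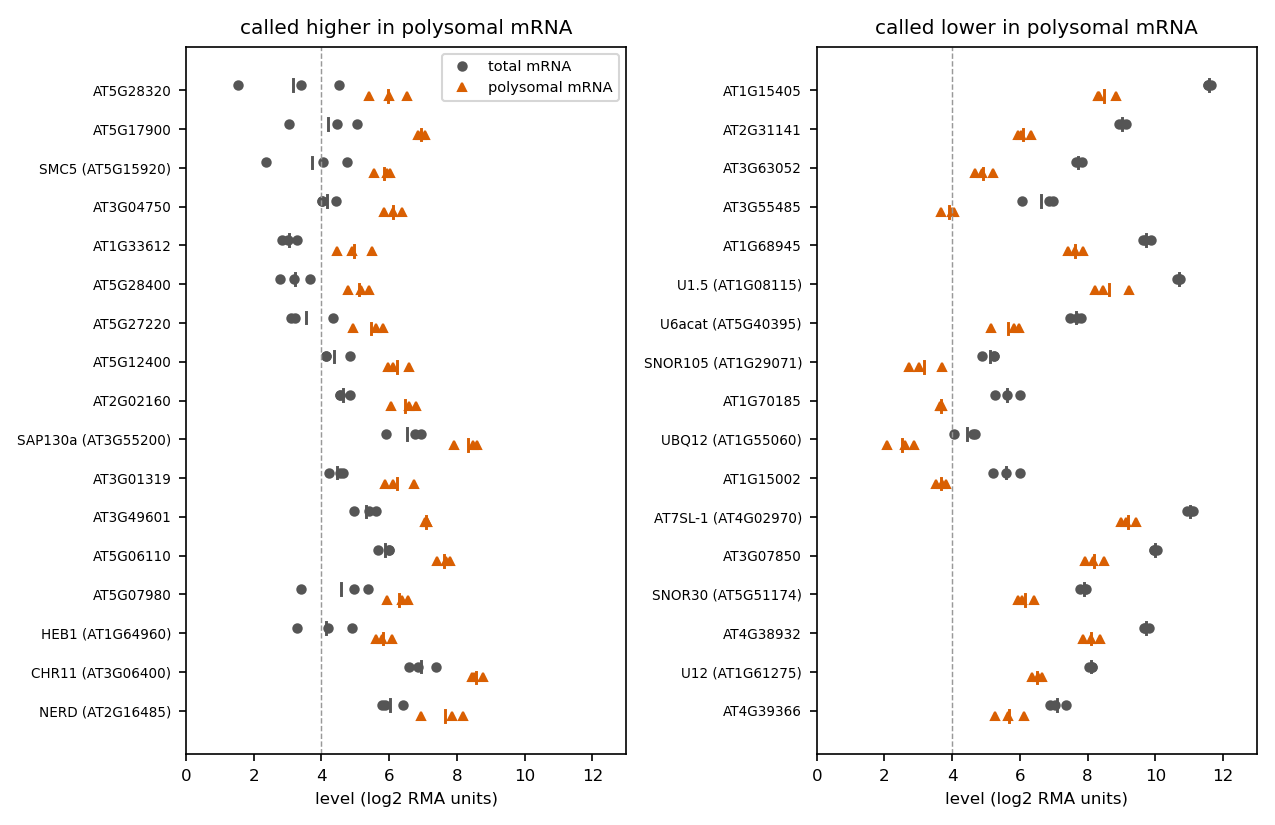
The x axis is the log2 level on each array and the rows are the 17 genes with the largest differences in each direction that met the naming rule. Grey circles are the 3 total and orange triangles the 3 polysomal arrays of dry seeds, short bars are their means, and the dashed line is the noise level of 4. The rule took only genes whose fractions do not overlap, and AT1G15405 lies furthest to the left of its total values.

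Genes for chromatin factors recurred among the higher genes, and groups of them were put together from RefSeq names after the values had been seen, so they are given as counts and values only. Of 22 chromatin remodelling factors tested, 7 were higher and 1 lower (31.8% and 4.55%, against 2.69% and 0.697% of all genes tested). Their median difference was 0.64 and their median span 5474 bp. SYD and BRM, the catalytic ATPases of SWI/SNF complexes, had differences of 1.5 ± 0.18 and 1.48 ± 0.19. SYD was at 6.47, 6.17 and 6.42 in total and 8.01, 7.61 and 7.94 in polysomal mRNA, and BRM at 5.57, 5.83 and 6.18 against 7.46, 7.12 and 7.45. CHR23, a further SWI/SNF ATPase, was higher by 1.42 ± 0.26. CHR1, known as DDM1 and needed to keep DNA methylation, was the exception at -1.07 ± 0.21, from 3.12, 3.63 and 3.32 to 2.07, 2.21 and 2.58, all in the noise, and its difference was -0.93 without T dry 2 and -0.96 without P dry 1.

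Of 25 SET domain proteins, which methylate histones, 3 were higher and 1 lower. SDG2 was higher by 1.44 ± 0.16, EFS by 1.17 ± 0.22 and SDG29 by 1.14 ± 0.25, while SDG35 was lower (-1.14 ± 0.22) at levels of 3.38 and less. Of 20 kinesins, motor proteins of microtubules, 6 were higher, with KP1, ATK2, ARK3 and KINESIN-12B at differences of 1.21 to 1.30. Of 14 auxin response factors, 4 were higher (28.6%, against 2.69% of all genes tested) and 0 lower. The higher ones were ARF6, ARF9, ARF19 and ARF8, with differences of 1.11 to 1.20. Median spans were 4267 bp for SET domain proteins, 5367 bp for kinesins and 4633 bp for auxin response factors. Among all protein coding genes of 4000 to 6000 bp, 6.41% were higher. The total means of ATK2, ARK3, KINESIN-12B and ARF19 were 3.43 to 3.70, in the noise. The calls of ARF8, ARF9, ARF19, SDG29 and SDG35 were each lost when one dry array was left out, with values of 0.75 for ARF8 and 0.95 for SDG29 without T dry 2, 0.94 for ARF8 without P dry 2, 0.98 for ARF9 without T dry 1, and 0.85 for ARF19 and -0.99 for SDG35 without P dry 1.

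Embryo defective genes, whose loss stops embryo development, were the largest such group with 241 tested. Of these, 13 were higher (5.39%, against 2.69% of all genes tested) and 0 lower (against 0.697%). Their median difference was 0.35 and their median span 3203 bp. Next to SMC5, the largest differences were those of emb2410 (1.47 ± 0.20), of ACC1, the cytosolic acetyl-CoA carboxylase (1.39 ± 0.22), and of emb2458 (1.34 ± 0.21). Histones had 0 of 22 called and a median of -0.15, and RAT5, the histone with the highest signal, had a difference of -0.04 ± 0.14.

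The higher and lower genes differed in gene span. The median span was 4273 bp for the 437 protein coding genes that were higher, 1395 bp for the 90 that were lower and 2376 bp for the 15941 that were not called. Of the higher genes 55.6% spanned 4000 bp or more and 3.66% less than 1000 bp, against 3.33% and 32.2% of the lower genes and 15.5% and 6.92% of all protein coding genes tested. The gene span includes introns and is not the length of the mRNA. These sets also differed in level. The lower genes had medians of 3.69 in total and 2.55 in polysomal mRNA, both in the noise. For the higher genes the medians were 4.46 and 5.68, and for those not called 5.38 and 5.61.

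Over the 16468 protein coding genes, the difference and the log2 span correlated with Pearson's r = 0.42 and Spearman's rho = 0.44. This is a description across genes, which share the arrays and are not replicates. Each single P dry array against the mean of total gave r = 0.42, 0.35 and 0.38, and the mean of polysomal against each single T dry array gave 0.38, 0.33 and 0.36. The correlation with the mean level was 0.17. Within genes of a mean level of 4 or less, r was 0.21 over 4394 genes, and it was 0.37 over 5410 genes at 4 to 6, 0.56 over 4885 genes at 6 to 8 and 0.605 over 1779 genes above 8.

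By span, the median difference went from -0.22 in the 922 genes of 500 to 1000 bp to 0.67 in the 750 genes of 6000 bp and over. The 217 genes under 500 bp had a median of -0.19 and a wider middle range, -0.53 to 0.23. In the longest class 127 genes were higher and 0 lower, which is 16.9% of the class, and in the class of 1000 to 1500 bp 6 of 1858 were higher and 18 lower. The 3 polysomal arrays gave medians of 0.76, 0.60 and 0.69 in the longest class.

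After 6, 26, 48 and 72 h of imbibition the same correlation was -0.05, 0.05, 0.19 and 0.28, and in the longest class the median difference was 0.02, 0.07, 0.21 and 0.38. No test was made between these values. The correlation of the level itself with the span was 0.06 to 0.07 in the 3 T dry and 0.15 to 0.17 in the 3 P dry arrays. In the arrays of 6 HAI it was 0.09 to 0.10 in total and 0.07 to 0.10 in polysomal mRNA, where the ranges overlapped.

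**Figure D3:**
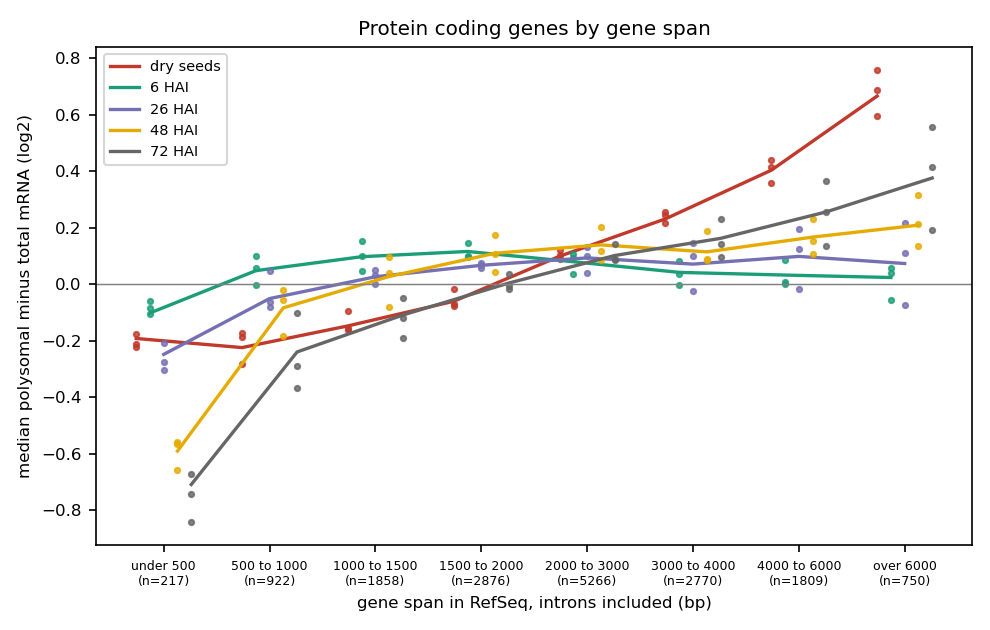
The y axis is the median log2 difference between polysomal and total mRNA and the x axis the class of gene span in bp, for 16468 protein coding genes. Lines are the medians at each time point and dots are single polysomal arrays against the mean of the 3 total arrays. Dry seeds (red) go from -0.22 at 500 to 1000 bp to 0.67 at 6000 bp and over, and 6 HAI (green) stays between -0.10 and 0.12.

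Storage proteins are laid down in the embryo during maturation and feed the seedling. Of the 10 seed storage protein genes tested, 1 was lower and 0 higher, with a median of -0.33 against 0.09 over all genes tested. After a further quantile normalization these medians were -0.15 and 0.02. Of the 10 genes, 7 lay below total without overlap and 1 above, against 11.6% and 24.4% of all genes tested. The group mean was 10.89, 10.83 and 10.88 in the total and 10.54, 10.59 and 10.68 in the polysomal arrays. SESA2, a gene of the napin-type albumins, was at 8.28, 7.98 and 8.28 in total and 6.77, 6.99 and 7.24 in polysomal mRNA, a 2.27-fold lower level (-1.18 ± 0.29, adjusted p = 0.00529). The other albumin genes SESA1, SESA3, SESA4 and SESA5 had differences of -0.60 to -0.36, none of which passed the adjusted p, although their fractions did not overlap. SESA genes are similar in sequence, so that their probe signals may be shared. The cruciferins, the globulin-type storage proteins, had differences of -0.09 ± 0.50 for CRA1, -0.02 ± 0.67 for CRU2 and -0.10 ± 0.52 for CRU3, with all values between 11.56 and 11.83, near the top of the range. Their errors come from the spread over all 30 arrays, which for these genes was larger than that among the dry arrays. One member differed in direction. AT2G18540, a cupin of the storage protein list singled out after its value was seen, was at 9.01, 8.94 and 9.10 in total and 9.91, 10.01 and 9.99 in polysomal mRNA (0.95 ± 0.31, adjusted p = 0.0334), just under the limit.

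The LEA proteins, which protect cells in the dry state, had 0 of 24 listed genes called and 21 differences below 0. Their median was -0.29, which was -0.13 after a further quantile normalization. Of the 24 genes, 13 lay below total without overlap and 0 above, against 11.6% and 24.4% of all genes tested. ATECP31, the member with the highest signal, was at 11.84, 11.84 and 11.82 in total and 11.84, 11.78 and 11.97 in polysomal mRNA (0.02 ± 0.43). The lowest difference, -0.82 ± 0.22 (adjusted p = 0.0102), was that of DI21, chosen after its value was seen. Oil body proteins and lipases had 0 of 8 called and a median of -0.11, which was 0.07 after a further quantile normalization. OLEO1, the main oleosin, was at 11.96 to 12.06 in total against 11.83, 11.81 and 11.81 (-0.19 ± 0.48). The heat shock proteins and factors had 0 of 15 called, a median of -0.10 and a range of -0.79 to 0.77. HSP17.6A, a small chaperone at 11.36 to 11.44 in total and 10.76 to 11.13 in polysomal mRNA, had a difference of -0.45 ± 0.51.

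Spans of these genes were below the median of all protein coding genes, with medians of 1464.5 bp for storage proteins and 1193.5 bp for LEA proteins. Set against the median of protein coding genes in the same span class, the median member was at -0.19 for storage proteins, -0.14 for LEA proteins, -0.02 for oil body proteins and lipases and 0.02 for heat shock proteins. The same measure was 0.17 for chromatin remodelling factors, 0.34 for auxin response factors, -0.13 for kinesins and -0.01 for SET domain proteins. For embryo defective genes it was 0.08.

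The translation machinery was mixed. Of 34 translation factors and poly(A)-binding proteins, 1 was higher (2.94%, against 2.69% of all genes tested) and 0 lower. Their median was 0.18. Of the 34 genes, 14 lay above total without overlap and 0 below, against 24.4% and 11.6% of all genes tested. EIF4G, the scaffold that joins the cap-binding protein to the poly(A)-binding protein, was at 7.80, 7.68 and 8.44 in total and 9.15, 8.87 and 8.99 in polysomal mRNA (1.03 ± 0.15, adjusted p = 6.29e-05). Its value was just past the limit and fell to 0.88 without T dry 2, 0.94 without T dry 1 and 0.96 without P dry 1. EIF3A, the large subunit of the factor that brings mRNA to the small ribosomal subunit, had a difference of 0.82 ± 0.12 (adjusted p = 6.57e-05), and LOS1, an elongation factor, one of 0.74 ± 0.13 (adjusted p = 0.000383). Both were picked after their values were seen and stayed under the 2-fold limit. Of the 35 cytosolic ribosomal proteins listed by name 0 were called, with a median of -0.09. SAC52, at 9.83 to 10.09 in total and 9.64 to 9.74 in polysomal mRNA, had a difference of -0.26 ± 0.13. Of 29 plastid and mitochondrial ribosomal proteins 0 were called, with a median of -0.02 that was 0.0064 with equal array medians and 0.02 without T dry 3, and SSR16 was at -0.06 ± 0.13.

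Genes for the breakdown of stored oil and for gluconeogenesis, which seedlings use before photosynthesis starts, had 0 of 19 called. Their median was 0.25, and 16 differences were above 0. Of the 19 genes, 14 lay above total without overlap and 1 below, against 24.4% and 11.6% of all genes tested. MLS, malate synthase of the glyoxylate cycle, was at 11.30, 11.30 and 11.32 in total and at 11.45, 11.56 and 11.58 in polysomal mRNA (0.22 ± 0.11, adjusted p = 0.155). Relative to their span class the median of this list was -0.02.

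Signalling genes were near the middle of the distribution. Of 50 genes of abscisic acid and gibberellin signalling and of the maturation factors 0 were called, with a median of 0.05 that was -0.03 after a further quantile normalization. AHG1, a phosphatase that restrains abscisic acid responses in seeds, was at 10.80, 10.80 and 10.82 in total and 10.70, 10.87 and 10.68 in polysomal mRNA (-0.06 ± 0.40). Of 14 mRNAs with known regulatory upstream open reading frames, short frames before the main one that can hold back its translation, 0 were called. Their median was 0.12, and VTC2, of vitamin C synthesis, was at 0.29 ± 0.14. Of 4 seed coat and endosperm genes tested 0 were called, with a median of -0.08 that was 0.26 after a further quantile normalization and 0.05 without T dry 2, and EPR1 had a difference of -0.67 ± 0.31 (adjusted p = 0.123).

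Genes of the low oxygen response had 2 of 10 lower (20.0%, against 0.697% of all genes tested) and 0 higher. The median over the list was 0.19. AT4G10270, a wound-responsive protein, was at 4.14, 4.71 and 4.67 in total and 3.49, 3.09 and 3.14 in polysomal mRNA (-1.26 ± 0.21, adjusted p = 0.000184). SUS4, a sucrose synthase, was at 2.40, 2.3 and 2.98 against 1.38, 1.44 and 1.26 (-1.20 ± 0.21, adjusted p = 0.000288), wholly in the noise, and was at -0.99 without T dry 3. Polysomal levels were below 4 for both genes.

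Nuclear genes for photosynthesis had low levels in both fractions of dry seeds. Of the 39 tested 2 were lower (5.13%, against 0.697% of all genes tested) and 0 higher. Their median was -0.39, with 31 differences below 0. The group mean was 3.77, 4.3 and 3.61 in total and 3.54, 3.55 and 3.44 in polysomal mRNA, with T dry 2 the highest array. Without T dry 2 the median was -0.17. The summed log2 level of the 5 green tissue markers was 7.19 to 8.13 in total and 6.80 to 7.16 in polysomal mRNA, and their part in the result was not tested. LHCB2.2, a protein of the light-harvesting antenna, was at 4.68, 4.89 and 3.65 against 3.55, 2.73 and 3.15 (-1.27 ± 0.28, adjusted p = 0.0025). RBCS2B, a small subunit of Rubisco, was at 3.65, 4.89 and 3.58 against 3.86, 2.88 and 2.26 (-1.04 ± 0.34, adjusted p = 0.0322). Its fractions overlapped, and the difference was -0.61 without T dry 2, -0.98 without P dry 2 and -0.67 without P dry 3.

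Messenger RNAs of the organelle genomes are translated on the ribosomes of the organelles and not on those of the cytosol. The organelle genes tested had no RefSeq entry, so their gene types were not read. RNAs without coding sequence, such as tRNAs, may be among them. Of 15 plastid genes tested, 1 was lower (6.67%, against 0.697% of all genes tested) and 0 higher, and the median was -0.29. The lower gene was ATCG00230, at 5.83, 6.33 and 5.77 in total and 4.70, 4.76 and 4.76 in the polysomal arrays (-1.24 ± 0.18, adjusted p = 5.64e-05). Whether ATCG00230 has a coding sequence was not read. Of 92 mitochondrial genes 5 were higher (5.43%, against 2.69% of all genes tested) and 0 lower. Their median was -0.05, and it was 0.03 without replicate 2 of both fractions. ATMG00960 was at 6.69, 6.88 and 7.32 in total and 8.18, 8.28 and 8.25 in polysomal mRNA (1.27 ± 0.16, adjusted p = 7.65e-06), and ATMG00590 at 7.55, 7.73 and 7.69 against 8.94, 8.79 and 8.90 (1.22 ± 0.17, adjusted p = 2.83e-05). ATMG01000 was higher by 1.19 ± 0.18, and ATMG00880 by 1.44 ± 0.40 with a T dry 2 value of 2.01. The call of ATMG00880 was lost without T dry 2, at 0.79, and without P dry 1, at 1.34. Of the 43 pseudogenes tested 2 were higher (4.65%, against 2.69% of all genes tested) and 0 lower. The higher ones were AT1G31900 (1.09 ± 0.38) and AT2G07716 (1.0 ± 0.15). Chromosome 2 holds a copy of most of the mitochondrial genome, so the signals of AT2G07716 and AT2G07745 may be shared with mitochondrial transcripts. The call of AT1G31900 was lost without T dry 1, T dry 2, P dry 1 or P dry 3, at 0.76 to 1.0, and that of AT2G07716 without T dry 1, P dry 1 or P dry 2, at 0.94 to 0.99.

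**Figure D4:**
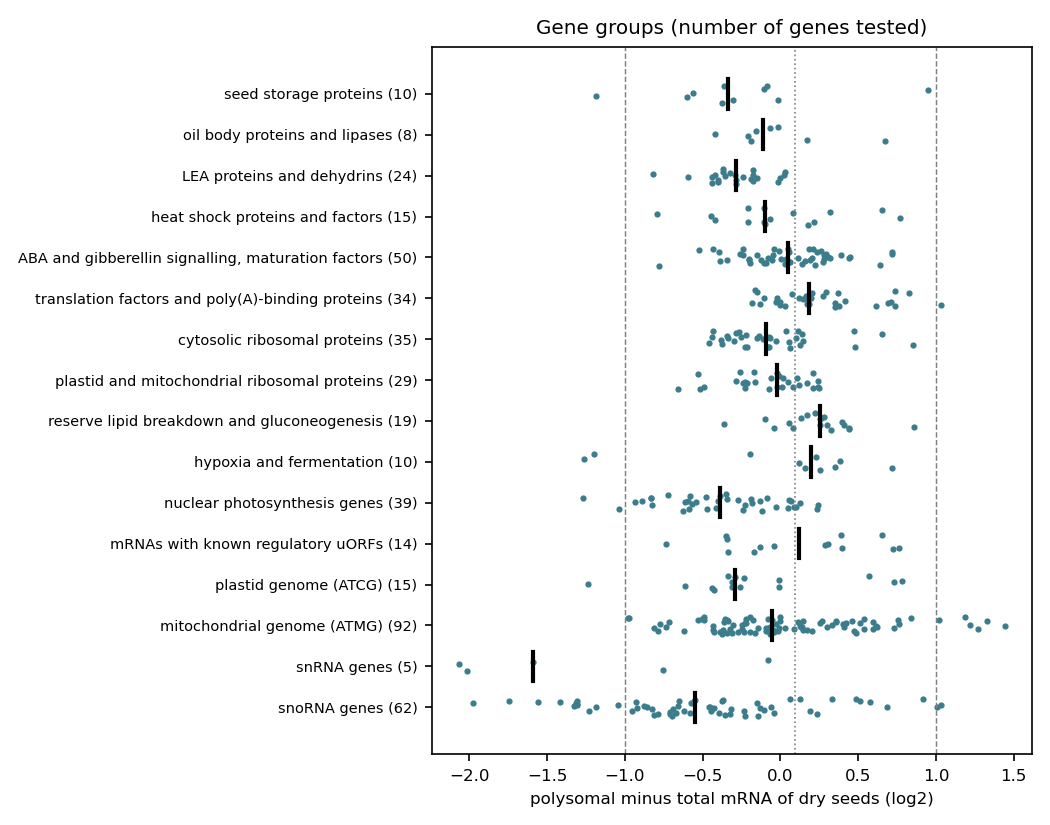
The x axis is the log2 difference between polysomal and total mRNA of dry seeds and each point is 1 gene of the group named on the y axis, with the number tested in brackets. Black bars are group medians, the dotted line is the median of all genes tested (0.09) and dashed lines are the 2-fold limits. The snRNA genes have a median of -1.59 and the snoRNA genes one of -0.55, and the other medians shown lie between -0.39 and 0.25.

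The arrays of imbibed seeds held a part of these differences. Of the 459 genes higher in polysomes of dry seeds, 16, 11, 24 and 31 were also higher after 6, 26, 48 and 72 h, which is 3.49%, 2.4%, 5.23% and 6.75% of them against 1.26%, 0.697%, 3.7% and 4.26% of all genes tested. Their median difference at these time points was 0.17, 0.22, 0.16 and 0.26, against 0.06, 0.05, 0.10 and 0.07 over all genes tested. In the opposite direction, 3, 2, 12 and 19 of the 459 were lower. Of the 119 genes lower in dry seeds, 29, 27, 35 and 44 were also lower, which is 24.4%, 22.7%, 29.4% and 37% against 2.71%, 2.79%, 6.4% and 7.56% of all genes tested. Their medians were -0.23, -0.26, -0.55 and -0.53, and 1, 0, 7 and 4 of the 119 were higher. Read the other way, the shared genes were 7.44%, 9.24%, 3.8% and 4.26% of the genes higher at these time points and 6.26%, 5.67%, 3.21% and 3.41% of those lower.

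The genes called in the same direction at all 5 time points were 1 higher and 11 lower. The higher one was AT5G06110, at 5.98, 5.67 and 6.00 in total and 7.66, 7.80 and 7.40 in polysomal mRNA of dry seeds (1.74 ± 0.16, adjusted p = 1.16e-07), with differences of 1.08, 1.07, 1.02 and 1.04 at the later time points. The 11 lower genes were AT1G15405, AT2G31141, AT3G63052, AT3G55485, AT1G68945, U1.5, U6acat, AT7SL-1, SNOR30, AT4G38932 and AT5G13225. The difference of AT1G15405 was -3.37, -2.90, -2.80 and -3.38 at 6, 26, 48 and 72 HAI, and that of AT1G68945 was -2.23, -2.48, -1.80 and -1.91. Among the 11, 8 are of a type without coding sequence by RefSeq name or type, with AT7SL-1 counted as 7SL RNA.

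**Figure D5:**
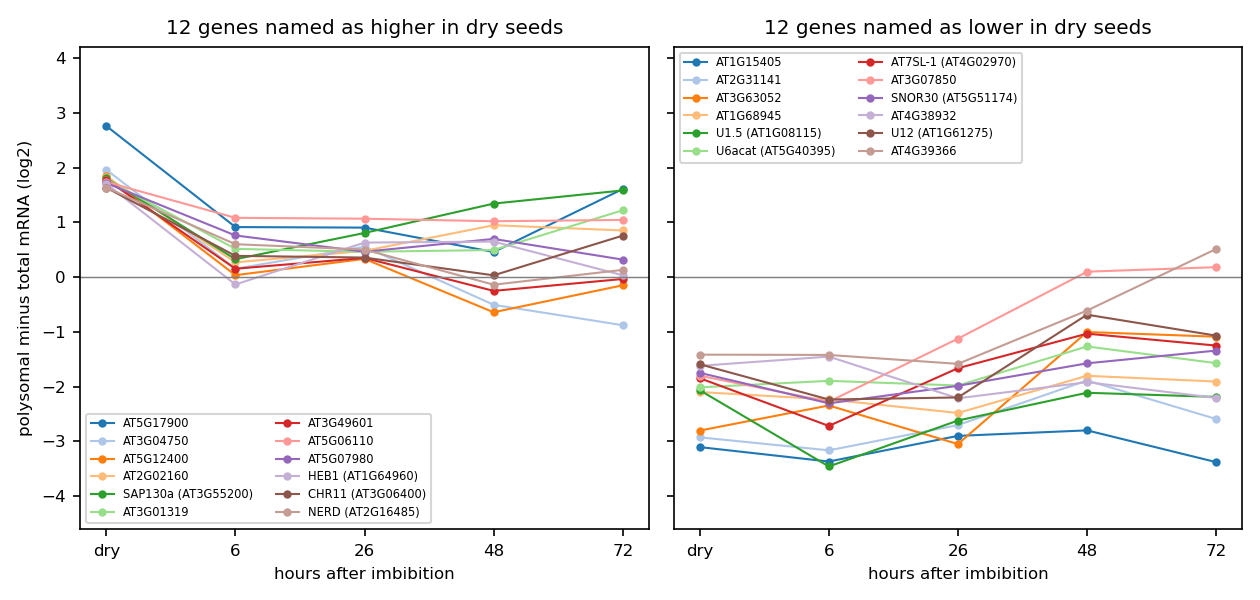
The y axis is the log2 difference between polysomal and total mRNA and the x axis the time point, with dry seeds first and then hours after the start of imbibition, for the 12 genes above the noise in both fractions with the largest difference in each direction. Of the higher genes on the left, AT5G06110 stays at 1.02 or more, and of the lower genes on the right, AT1G15405 stays at -2.80 or less while AT3G07850 reaches 0.18 at 72 HAI.

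A direct test of the dry difference against the mean of the 4 imbibed time points called 1166 genes higher and 332 lower in dry seeds (6.83% and 1.95% of the genes tested). The test includes the dry arrays of the main comparison and is not independent of it. Of the 92 mitochondrial genes, 42 were higher in dry seeds on that test and 0 lower. Their median difference was -0.05 in dry seeds and -0.60, -0.68, -0.79 and -1.47 at the later time points, where 11, 20, 41 and 51 of the 92 were lower in polysomes. For the snoRNA genes the median was -0.55 in dry seeds and -1.28, -1.27, -0.51 and -0.64 later, with 12 lower in dry seeds and 47, 44, 16 and 19 later, and 14 of 62 were higher in dry seeds on the direct test. For the 5 snRNA genes the medians were -1.89, -1.98, -0.69 and -1.07 after imbibition, and 0 differed on the direct test.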

How the data were processed

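Total and polysomal RNA of dry and imbibed seeds was hybridised to Affymetrix Arabidopsis Gene 1.1 ST arrays, 1 array per sample, with 3 replicates in each of the 10 groups. The authors deposited log2 values made by RMA, which corrects background, sets the probe signals of all arrays to one distribution and gives 1 value per locus. The labelling kit is named differently in the labels and in the study's methods. RMA removes any change in polysome loading shared by all mRNAs, and the number of arrays limits the precision.

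A gene was kept where some group had all its replicates above 4 (17061 of 27827). A model with 1 mean per group was fitted to all 30 arrays with limma 3.58.1 in R 4.3.3, and p-values were adjusted by Benjamini-Hochberg over all genes kept. Genes with an adjusted p below 0.05 and a log2 difference above 1 in size were called. Named genes are, in each direction, the 12 called genes with the largest differences and no overlap among those above 4 in both fractions, the 5 largest among those at 4 or less in the lower fraction, and in each group up to 4 called genes in each direction or else the member with the highest signal. Symbols, gene types and gene spans came from RefSeq on TAIR10.1. Loci of the gene lists without a matching RefSeq name were left out unless the paper names them. This removed 70 loci, among them 19 LEA proteins and 25 translation factors or poly(A)-binding proteins. Counts for the listed groups therefore cover named members and not whole gene families. Members, gene lists and tests were chosen with earlier results of these data known. The alternatives tried were other noise filters, scalings, moderation and call rules, a replicate block and leaving out arrays. The noise level and call rule follow the study's methods.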

Additional observations from a re-analysis of the deposited data

Results flagged for a closer look

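Of the 79 named genes called in dry seeds, 40 differed in polysome occupancy from the mean of the 4 imbibed time points by over 2-fold at an adjusted p below 0.05 (limma), 33 of them higher and 7 lower in dry seeds. The values that follow are the dry difference minus the mean of the later differences on the log2 scale. This test shares the dry arrays with the calls themselves, so it is not independent of the choice of the genes, and the cause was not tested.

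Among the genes with the largest differences in dry seeds, the value was 2.5 for AT5G28320, 2.13 for AT3G04750, 1.99 for AT1G33612, 1.95 for AT5G12400, 1.93 for SMC5 and 1.79 for AT5G17900. It was 1.73 for AT3G49601, 1.41 for HEB1, 1.39 for AT5G28400, 1.36 for NERD, 1.28 for AT5G27220, 1.25 for CHR11, 1.19 for AT2G02160, 1.16 for AT5G07980 and 1.11 for AT3G01319. The dry value of AT5G28320 lost its call without T dry 2.

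Among the genes of chromatin and development, it was 1.71 for SYD, 1.53 for emb2458, 1.47 for BRM, 1.3 for emb2410, 1.25 for SDG2, 1.2 for ARF6, 1.06 for CHR23 and 1.05 for KP1. CHR1 and SDG35, both in the noise in dry seeds, had values of -1.94 and -1.05.

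Among the genes lower in dry seeds, UBQ12 had a value of -2.34, AT4G10270 one of -1.71, SUS4 one of -1.5, LHCB2.2 one of -1.47 and AT3G07850 one of -1.02. UBQ12 was lower in polysomes of dry seeds and had differences of -0.16 to 0.97 afterwards.

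Among organelle transcripts and RNAs without coding sequence, the value was 3.06 for ATMG00880, 1.93 for ATMG00590 and 1.62 for ATMG00960. It was 2.74 for the pseudogene AT1G31900, 1.77 for the pseudogene AT2G07716, 1.64 for the tRNA gene AT2G07745, 1.45 for AT2G04852, 1.37 for AT1G32385, 1.27 for AT1G64572 and 1.22 for AT4G26095.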

How the results depend on the processing

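With all 30 arrays, 459 genes were higher and 119 lower in polysomal mRNA of dry seeds, and none of the 79 named genes called changed direction under the alternatives run. The count of lower genes depended on the noise filter, with 326 without a filter, 52 where all 3 dry arrays of one fraction had to exceed 4 and 42 where the mean of the 6 dry arrays had to. After a further quantile normalization 273 genes were higher and 128 lower, of which 201 and 96 were among the main calls. A test against the 2-fold limit itself (limma treat) called 2 higher and 5 lower, which turns the balance of the calls, and an adjusted p with no limit called 2674 and 802. Without one dry array the counts were 419 to 700 higher and 118 to 201 lower, and without one replicate number in both fractions 497 to 662 and 135 to 194. Both highest pairs came without T dry 3 or replicate 3.

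In the 30 array model, a block for each combination of time point and replicate number gave 460 genes higher and 119 lower. Of them, 456 and 117 were shared with the model without the block. In a model of the 6 dry arrays a block by replicate number gave 111 and 27, against 363 and 80 without it. Same-numbered total and polysomal arrays correlated in their deviations from the group means at -0.0016, 0.0721 and 0.0797, and neither the labels nor these values settle whether a number marks a shared seed lot or extract. The cause of these changes was not tested.

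Of the 79 named genes called, 58 kept their call with each dry array left out in turn and 21 lost it with at least one. Calls of 7 named genes were lost with array quality weights, 12 with quantile normalization, 13 with the dry arrays alone, 40 with the block in that model and 72 with treat.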
